A study of Mus musculus with 42 samples.

Results

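Cnn1, Tagln, Acta2, Actc1, Thbs1, Ctgf and Cyr61 are 7 genes of the contractile cytoskeleton and the pericellular matrix that are widely used as readouts of SRF and YAP. They were taken by name from 2 tables of polyA RNA sequencing of differentiating mouse embryonic stem cells (ESCs). Of the 7, 6 stand among the 16345 named genes of the table on epiblast-like cells (EpiLCs), and all 7 among the 16753 genes of the embryoid body (EB) table. The tables hold 17553 gene names between them, and Acta2 was analysed in the EB table only. The genes were chosen by reading earlier results of these data. The values that stood out there were the fall of Cnn1 with doxycycline and the rise of Thbs1 along the EpiLC course. Their values in those comparisons are therefore given as descriptions, with no test.

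SRF is a transcription factor that binds CArG boxes (CC, then 6 bases of A or T, then GG). Its coactivators of the MRTF family (Mkl1 and Mkl2) are held in the cytoplasm by monomeric actin and enter the nucleus when actin polymerises. YAP is a coactivator of the TEAD factors, which bind the sequence called MCAT, and the kinases LATS1 and LATS2 of the Hippo pathway keep it out of the nucleus. Both routes respond to cell shape, adhesion and tension, and they share targets.

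The EpiLC table holds 24 libraries. The line KH2-ISY1 carries a Flag-ISY1 transgene, coding for a splicing factor, that doxycycline (Dox) turns on. It was sampled without Dox in 2i/LIF (0 h) and after 6, 12, 18, 24, 30, 36, 48, 72 and 96 h in EpiLC medium, and with Dox at 24, 48, 72 and 96 h. A separate ESC line with a DGCR8 knockout, a protein needed with the nuclease Drosha to process microRNA precursors, was sampled at 0, 6, 24, 48, 72 and 96 h, and the labels give it no Dox treatment. The last 4 libraries are of KH2-ISY1 cells put back into 2i/LIF after 24 or 48 h in EpiLC medium without or with Dox (converted ESCs, cESCs), and the labels give all 4 as without Dox after replating. The EB table holds 8 libraries of KH2-ISY1: serum/LIF cells without and with Dox at day 0, and EBs without Dox at days 1, 2, 4, 8, 10 and 13. No library of a line without the ISY1 transgene was given Dox, so Dox and ISY1 cannot be told apart. The knockout is in another line, so line and knockout cannot be told apart either.

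Each condition and time had 1 library, so no single value has a replicate error. The unit, called normalised reads here, appears from the values to be the reads of a gene divided by 1 factor per library. On that reading libraries held 5.80 to 56.0 M reads, estimated less surely in 8 of the 32, and 3 reads, the level that a count of 0 allows, came to 0.426 to 2.80 normalised reads in the EpiLC table. These limits cover counting error only. Isy1 was at 708 to 3038 in the 4 EpiLC libraries with Dox and at 267 to 558 in the 10 without, and Dgcr8 was at 36.8 to 44.5 in the 6 knockout libraries and at 75.2 to 231 in those 10. Both targeted genes went with their labels, although the files do not say which part of Dgcr8 was deleted. In bulk RNA, more cells with a transcript and more transcript per cell cannot be told apart.

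The RefSeq promoters of the members (GRCm38.p6, the 250 bases before the start of transcription) are shown because 6 of these genes rose together late in the EpiLC course. Positions are counted from the start in the promoter table, which for Acta2 and Cnn1 lies inside the span of the RefSeq gene table, downstream of the outermost start. A promoter was at hand for 4 of the 7 genes, and Tagln, Thbs1 and Ctgf are named only. Both strands were searched for the CArG box, for the CArG box with 1 mismatch among its 6 central bases, and for the MCAT letters CATTCC. The stretches printed below run 5′ to 3′ on the gene's strand, with each match in capitals.
Actc1, chr2:114052876-114053125, minus strand: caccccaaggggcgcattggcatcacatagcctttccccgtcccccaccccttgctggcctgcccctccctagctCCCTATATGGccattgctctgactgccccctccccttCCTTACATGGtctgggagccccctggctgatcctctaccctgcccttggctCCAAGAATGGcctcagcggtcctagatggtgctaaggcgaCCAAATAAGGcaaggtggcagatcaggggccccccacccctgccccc
Acta2, chr19:34255438-34255467, minus strand: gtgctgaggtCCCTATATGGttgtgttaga
Acta2, chr19:34255388-34255417, minus strand: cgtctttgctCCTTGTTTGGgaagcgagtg
Cyr61, chr3:145649986-145650235, minus strand: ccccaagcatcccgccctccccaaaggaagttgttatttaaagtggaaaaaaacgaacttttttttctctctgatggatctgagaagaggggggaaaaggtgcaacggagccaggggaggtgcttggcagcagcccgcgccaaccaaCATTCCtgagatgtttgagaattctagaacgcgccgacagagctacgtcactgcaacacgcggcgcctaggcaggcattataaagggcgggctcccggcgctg
Cnn1, chr9:22099003-22099220, plus strand: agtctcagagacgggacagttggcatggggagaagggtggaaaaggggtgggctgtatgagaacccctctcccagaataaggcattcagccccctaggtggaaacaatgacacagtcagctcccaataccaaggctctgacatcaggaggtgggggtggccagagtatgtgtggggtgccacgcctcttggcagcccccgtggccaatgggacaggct

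The Actc1 promoter held 1 CArG box, CCAAATAAGG, 47 to 38 bases before the start, and 3 sequences with 1 mismatch further upstream. The Acta2 promoter held 2 sequences with 1 mismatch, 84 to 75 and 34 to 25 bases before the start, and 1 MCAT match on the other strand 146 to 141 bases before it. The Cyr61 promoter held 1 MCAT match 103 to 98 bases before the start, and the Cnn1 promoter, of which 218 bases are shown, held none of the letters searched. Of 32841 mouse promoters of the same length, 1.47% held a CArG box, 7.24% a CArG box with 1 mismatch and 12.6% CATTCC. A match is a description of letters and not a site.

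Without Dox, all 6 members of the EpiLC table were at their highest at 96 h, and the contractile genes started from near nothing. Cnn1, calponin 1, which binds actin filaments of smooth muscle, stood at 2.6 normalised reads at 0 h, 0.6 at 6 and 12 h, 6.4 at 24 h, 11.2 at 30 h, 8.9 at 36 h, 39.8 at 48 h, 165.5 at 72 h and 235.7 at 96 h. Tagln, transgelin, an actin cross-linker and classical SRF target, was at 5.2 at 0 h, 34.1 at 30 h, 43.8 at 36 h, 59.3 at 48 h, 587 at 72 h and 1515 at 96 h. Cnn1 was thus no higher at 36 h than at 30 h, while Tagln was higher at each of these later hours. Actc1, the actin of heart muscle, was listed at no more than 0.6 from 0 to 48 h, which is a single read, and reached 7.5 at 72 h and 27.7 at 96 h. Reads of Actc1 could be split with its near-identical copies Acta1, Acta2, Actg1 and Actb, so its level is uncertain.

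**Figure D1:**
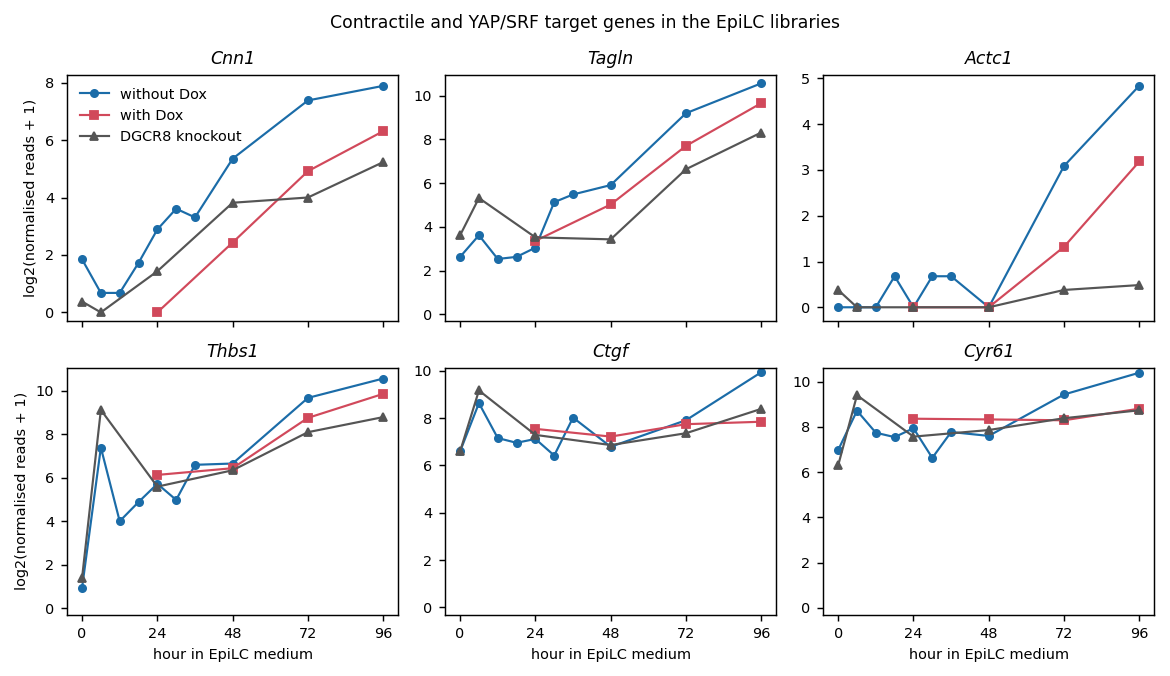
Level of 6 members as log2(normalised reads + 1) against hours in EpiLC medium, with 1 point per library for the 10 libraries without Dox (circles), the 4 with Dox (squares) and the 6 of the DGCR8 knockout (triangles). Each gene is highest without Dox at 96 h, where both other courses lie below it, and Thbs1, Ctgf and Cyr61 show an early peak at 6 h.

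The matricellular genes had an early peak and a late rise. Thbs1, thrombospondin 1, a secreted glycoprotein that activates latent TGF-beta, went from 0.9 (a single read) at 0 h to 167.3 at 6 h, back to 15 at 12 h, and up to 100 at 48 h, 820.5 at 72 h and 1524 at 96 h. Ctgf, a secreted CCN protein and standard YAP target, was at 95.7 at 0 h, 396.4 at 6 h, 141.9 at 12 h, 109.7 at 48 h, 240 at 72 h and 981.7 at 96 h. Cyr61, its CCN relative, was at 125.2, 420.8, 213.8, 193.8, 693 and 1353 at the same hours. All 3 were at least 2-fold higher at 6 h than at 0 h on the scale of log2(value + 1), against 10.5% of all genes measured. Of the 4 members measured, Tagln (11.3 and 4.8), Thbs1 and Ctgf were at least 2-fold lower at 12 h than at 6 h, against 5.97%, and Cyr61 fell just short of that fold. Between 48 and 96 h all 6 members were at least 2-fold higher, against 8.9% of genes. The members were chosen with this course in view, so nothing is read from the shares in this paragraph.

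The early peak appeared in the knockout line as well, which shares no library with the course above. There Thbs1 was at 1.6 at 0 h, 559 at 6 h and 47.3 at 24 h. Ctgf was at 95.6, 574.8 and 155.7, and Cyr61 at 77.8, 677.6 and 189.5. Tagln, which had gone from 5.2 to 11.3 in the line without Dox, went from 11.3 to 39.0 and back to 10.5. Of the 4 members measured there, all 4 were at least 2-fold higher at 6 h than at 0 h, against 7.89% of genes. Thbs1, Ctgf and Cyr61 passed this fold in both lines, which 4.4% of genes did. The course without Dox was in view when the members were chosen, so that last share is a description. No library with Dox was taken at 6 h.

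In the smooth fit over the 10 libraries without Dox, all 6 members had a fitted change above 0. The fit called 50.1% of 16206 genes, 25.4% higher and 24.8% lower. The fitted change between 0 and 96 h was 9.52 ± 1.49 (SE, log2) for Thbs1, 7.87 ± 0.80 for Tagln, 6.29 ± 0.62 for Cnn1, 4.97 ± 0.84 for Actc1, 3.48 ± 0.59 for Cyr61 and 2.91 ± 0.78 for Ctgf. This comparison was in view when the members were chosen, so their fitted changes are descriptions and no test of them is given. Single libraries set the size for several genes. Thbs1 stood at 3.90 without the 0 h library, Actc1 at 2.84 without the 96 h library, and Ctgf at 1.26 without the former and 1.09 without the latter. Cyr61 stood at 1.90 without the 0 h library.

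Other SRF targets mostly went up in the same 10 libraries. Of 21 genes in a list of SRF cytoskeletal targets, 14 rose and 1 fell, with a median log2 change of 1.5 against -0.02 over all genes. The fit called 25.4% of all genes higher and 24.8% lower. Myl9, a myosin light chain, rose by 6.98, Acta1, skeletal muscle actin, by 5.15 and Tpm2, a tropomyosin, by 3.32, while Cnn3, a calponin outside muscle, fell by 0.34 on the log2 scale. Of 5 immediate early SRF targets, 3 rose, among them Srf itself (1.98), and Fos fell by 2.33. Of 19 YAP/TEAD targets, 11 rose and 4 fell, with a median of 1.92. Igfbp3, a binding protein of insulin-like growth factors, rose by 6.25 and Ankrd1, a widely used YAP readout, by 5.34, while Myof, a membrane repair protein, fell by 5.26. These adjusted calls come from limma on all genes, and the lists, too, were chosen with earlier results known.

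The pathway's own factors moved in both directions, as did all genes. Of 20 measured factors, 7 rose and 4 fell along the course, against 25.4% and 24.8% over all genes. Amot, a scaffold that binds YAP, rose by 5.60, Lats2 by 2.12 and Srf by 1.98, while Tead4 fell by 2.62 and the Hippo kinase gene Stk3 by 1.16. Yap1 itself rose by 0.49. Among 5 relatives of the CCN and thrombospondin genes, 4 rose (Nov, Thbs3, Thbs2 and Comp) and none fell.

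**Figure D2:**
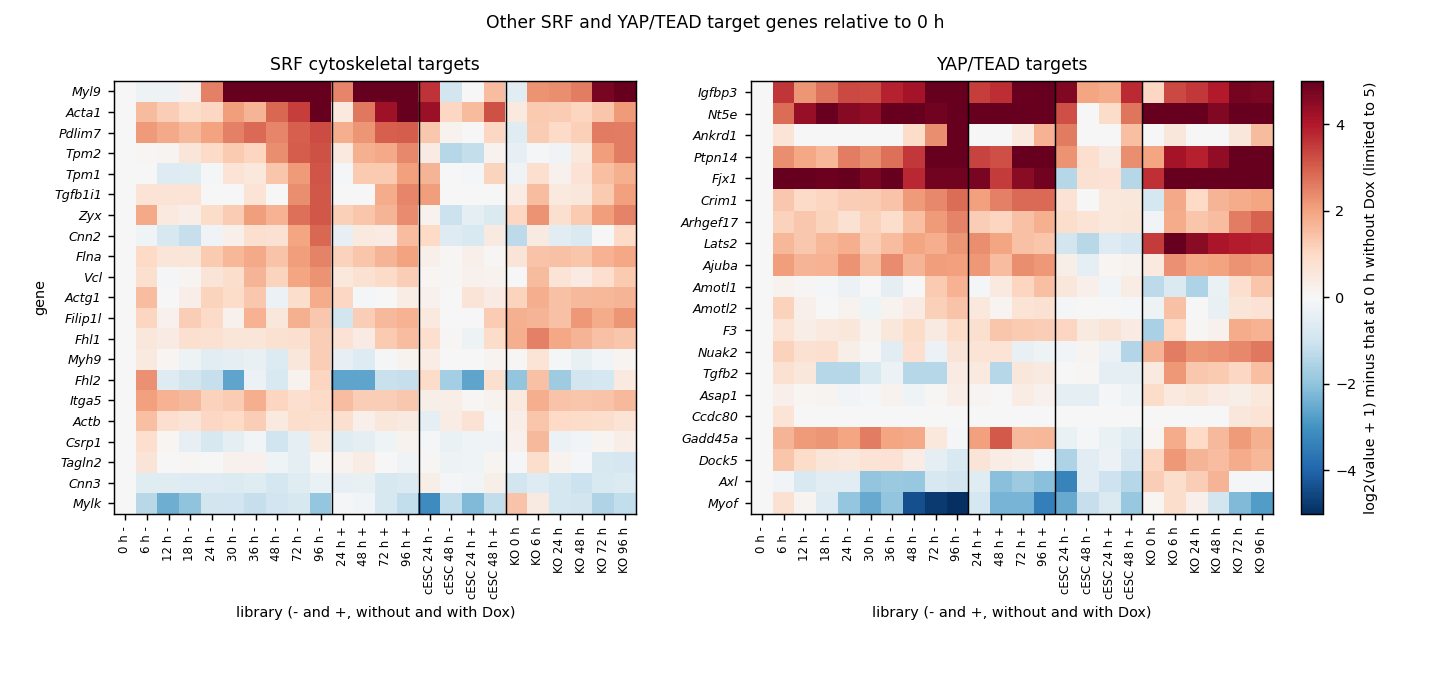
Heat map of log2(normalised reads + 1) minus the value at 0 h without Dox for other SRF cytoskeletal targets (left) and YAP/TEAD targets (right), 1 row per gene and 1 column per library, with lines between the courses without Dox, with Dox, the cESCs and the knockout (KO). Myl9 and Igfbp3 deepen along the 10 libraries without Dox, Myof goes the other way, and the first and the fourth cESC columns stand above the other 2 for Myl9, Acta1 and Igfbp3.

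Markers of other cell types were read in the same libraries. Of 8 feeder fibroblast markers, 3 are among the genes measured here. Col1a1 was at 16.2 and Col1a2 at 1.3 at 96 h without Dox, and Thy1, which is also made outside fibroblasts, made up most of the summed level of 154.5. Of 5 smooth muscle markers, 3 were measured, and their sum ran from 203.7 to 347.6 over the 10 libraries, with Lmod1 the only 1 of the 3 that rose (2.47). The EpiLC markers Fgf5, Pou3f1 and Dnmt3b rose by 8.56, 5.76 and 3.92. Whether other cells took part in the members' rise was not tested.

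Over all 24 libraries of the table the members formed no single pattern. As a description, Spearman's rho across these libraries, which share lines, hours and depths, was 0.89 between Thbs1 and Cyr61, 0.87 between Ctgf and Cyr61, 0.84 between Thbs1 and Ctgf, and 0.78 between Cnn1 and Tagln. It was 0.71 between Tagln and Actc1 and 0.66 between Cnn1 and Actc1. Pairs of a contractile with a matricellular gene ran from 0.34 (Actc1 and Cyr61, and Cnn1 and Ctgf) to 0.65 (Cnn1 and Thbs1), apart from Tagln and Thbs1 (0.80). With that exception the order followed the split into contractile and matricellular genes, but only narrowly, at 0.66 against 0.65. Among genes with a mean of at least 10 normalised reads, the most similar to Cnn1 were Esrp1 (0.93), Gpc1 (0.93) and Zfp608 (0.92), and to Tagln Sema3c (0.93), Tpm1 (0.91) and Tpm4 (0.90). The nearest to Thbs1 were Dock11 (0.93), Zyx (0.92) and Fat3 (0.91), and to Actc1, which was near 0 in most libraries, Msmp (0.77).

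With Dox Cnn1 was lower at every hour, and all 6 members were lower at 72 and 96 h. Cnn1 with Dox was listed at 0 at 24 h and at 4.4, 29.2 and 78.3 at 48, 72 and 96 h, beside 6.4, 39.8, 165.5 and 235.7 without. It was lower at 4 of 4 hours. At 24 h the 6.4 without Dox was 7 reads, 2.28-fold above the 2.80 that 3 reads would give with Dox. That fold takes the 7 reads as exact, so it is not a lower bound. The mean difference of Cnn1, -2.46 ± 0.27 (SE, log2), was the lowest of 16117 genes. Being lower at every hour held for 14.6% of genes and an adjusted call lower for 1.05%. This comparison was in view when the genes were chosen, so nothing is read from these shares. Tagln was at 9.3, 31.6, 207.9 and 808.6 with Dox beside 7.3, 59.3, 587 and 1515 without, and was lower at 3 of 4 hours. Actc1 was at 1.5 and 8.1 at 72 and 96 h beside 7.5 and 27.7, and was listed at 0 in all 4 libraries of 24 and 48 h.

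**Figure D3:**
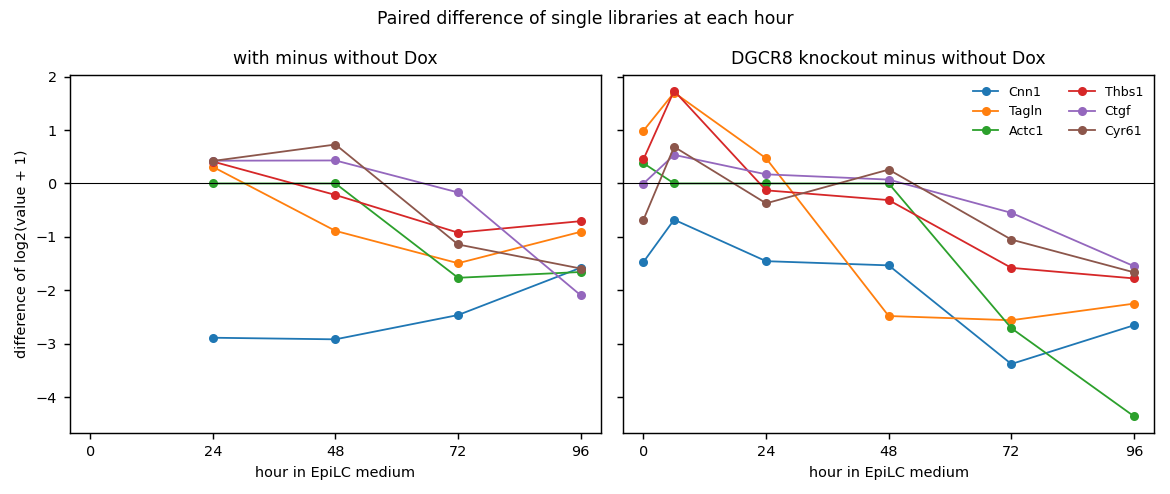
Difference of log2(normalised reads + 1) between single libraries of the same hour for 6 members, with minus without Dox (left) and DGCR8 knockout minus without Dox (right). Cnn1 lies below 0 at every hour in both panels, Ctgf and Cyr61 lie above 0 with Dox at 24 and 48 h and below at 72 and 96 h, and at 72 and 96 h every gene lies below 0 in both panels.

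Thbs1, Ctgf and Cyr61 changed sides with time. Thbs1 was at 69.2, 86.0, 433 and 933.9 with Dox beside 51.8, 100, 820.5 and 1524 without. Ctgf was at 186, 148.2, 213.5 and 229.4 beside 138.2, 109.7, 240 and 981.7, so that its 4 values with Dox ran from 148.2 to 229.4. Cyr61 was at 329, 321.9, 313.5 and 448 beside 245.5, 193.8, 693 and 1353, with no steep rise after 48 h. Both CCN genes were higher with Dox at 24 and 48 h and lower at 72 and 96 h. Their mean differences over the 4 hours were -0.35 (Ctgf) and -0.40 (Cyr61), and without the 96 h pair they were 0.23 and 0.0027, on the other side of 0. At 72 h, 4 of the 6 members were at least 2-fold lower with Dox, against 5.25% of genes. At 96 h it was also 4 of 6 (Cnn1, Actc1, Ctgf and Cyr61), against 6.49%. Nothing is read from these shares, since this comparison was in view when the genes were chosen.

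Few other targets passed the test with Dox. The fit called 2.83% of all genes, 1.78% higher and 1.05% lower. None of 21 SRF cytoskeletal targets was called by limma, although 8 were lower and 1 higher at an unadjusted p under 0.05, and their median was -0.28 against -0.01 over all genes. Srf was called lower (-0.79, SE 0.14, limma adjusted p = 0.042). It was at 596.3, 508.8, 582 and 676 with Dox beside 703.6, 919.5, 1273 and 1312 without, which means lower at each hour. Of 19 YAP/TEAD targets only Myof was called, and it was higher (1.83). No gene was called without the intensity trend, without the block on hour, or without the 48 h or the 72 h pair, so the calls of Srf, Myof, Fgf5 and Dnmt3b all end there. The EpiLC markers Fgf5 and Dnmt3b were called lower with Dox by 1.18 and 0.69 on the log2 scale. The ESC markers Zfp42 and Sox2 stood higher with Dox at 72 and 96 h, Zfp42 at 2065 and 1300.0 beside 402 and 202.6 without, and Sox2 at 986.1 and 801.4 beside 273 and 152.3, while Nanog was lower (436.7 and 515.8 beside 521 and 766). Of the 4 primitive endoderm markers measured, 3 had a mean difference above 0 with Dox and 1, Dab2, below 0. Gata6, from this list, was at 20.2 and 10.9 beside 2.5 and 0.9 at 72 and 96 h. Dab2 was slightly lower with Dox at both of these hours. Thy1 stood at 30.7 and 17.6 at 72 and 96 h with Dox beside 134.5 and 137 without. The part of these differences in the members' values was not tested.

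In the knockout line Cnn1 was the only member called. Its libraries stood at 0.3, 0, 1.7, 13.1, 15 and 36.6 at 0, 6, 24, 48, 72 and 96 h, beside 2.6, 0.6, 6.4, 39.8, 165.5 and 235.7 in the line without Dox, and it was lower at 6 of 6 hours. At 0 and 6 h, however, both lines were at or under 3 reads, so no difference was measurable there. At 24 h the values were about 4 and 7 reads. The difference was -1.86 ± 0.35 (SE, log2; limma adjusted p = 0.0029). Without the block on hour the limma adjusted p was 0.36. Leaving out any 1 hour kept the call. Being lower at every hour held for 21.9% of genes. The fit called 42.4% of all genes, 18.1% higher and 24.3% lower, so that 1 of 6 members is no more than the background. The without-Dox libraries of 24 to 96 h serve as controls in both this and the Dox comparison, so the 2 are not independent. Cnn1 was chosen with its fall with Dox against these libraries in view. Its adjusted p therefore draws on values used in the choice, and nothing is read from its call.

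All 6 members were lower in the knockout line at 72 and 96 h, while the signs at earlier hours were mixed. Tagln was at 11.3, 39.0, 10.5, 9.8, 98.7 and 317.9 at the 6 hours, beside 5.2, 11.3, 7.3, 59.3, 587 and 1515. Actc1 was listed at 0.3 at 72 h and 0.4 at 96 h, at or under the floor of 3 reads, beside 7.5 and 27.7. No late rise of Actc1 was detectable in this line, where the floor rests on estimated depths of 33.5 and 38.8 M reads. Thbs1 was at 273.9 and 443.9 at 72 and 96 h, Ctgf at 163.6 and 335.1, and Cyr61 at 334.1 and 426.4, each below the line without Dox. At 6 h these 3 genes and Tagln were instead higher in the knockout line, Tagln and Thbs1 at least 2-fold, against 10.9% of genes. At 72 h 5 of 6 members were at least 2-fold lower, against 10.3% of genes, and at 96 h all 6 were, against 6.86%. The libraries without Dox belong to the course in view when the members were chosen, so these late shares are a description. In the knockout libraries of 72 and 96 h the ESC markers Sox2 and Zfp42 stood at 1723 and 1481 and at 1036 and 630.5, beside 273 and 152.3 and 402 and 202.6 in the line without Dox. Nanog, another ESC marker, was at 614.5 and 624.7 beside 521 and 766, higher at 72 h only. The EpiLC markers were mixed. Fgf5 was at 122.8 and 208.4 beside 476 and 449.4, and Pou3f1 at 639.5 and 709.8 beside 903.5 and 753.6. Dnmt3b was at 1181 and 1406 beside 1395 and 936.2, higher at 96 h. Otx2 was higher at both hours, at 406.2 and 478.6 beside 155 and 463.4. The part of these marker differences in the members' late values was not tested.

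Averaged over the 6 hours, the 5 members other than Cnn1 were not called. The limma differences were -0.69 (SE 0.60, adjusted p = 0.38) for Tagln, -1.11 (0.66, 0.20) for Actc1 and -0.27 (0.40, 0.62) for Thbs1. They were -0.22 (0.24, 0.48) for Ctgf and -0.47 (0.27, 0.18) for Cyr61. The value of Actc1 depends on the pseudocount, since most of its libraries were at or near 0. Without the 96 h pair Thbs1 and Ctgf stood at 0.03 and 0.05, above 0, and without the 6 h pair Cyr61 was called lower (-0.70, limma adjusted p = 0.049).

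The SRF cytoskeletal targets in the knockout line were called about as often as all genes. Of 21, 5 were higher and 5 lower, against 18.1% and 24.3% over all genes. Fhl1 (1.12) and Filip1l (0.91) were among the higher ones, and Cnn2 (-1.07), a calponin, Tpm2 (-0.85) and Pdlim7 (-0.81) among the lower ones. Of 5 immediate early targets 3 were lower, Junb (-0.997), Srf (-0.86) and Ier2 (-0.46). The 3 smooth muscle markers measured were all lower, led by Des, the muscle intermediate filament desmin (-3.71). Of 19 YAP/TEAD targets 10 were higher and 1 lower, with a median of 0.49 against -0.08 over all genes. Lats2, at 218.4 to 673.3 in the 6 knockout libraries, was higher by 2.59, Fjx1 by 1.87 and Nuak2 by 1.86.

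The factors that act on these targets were higher more often than lower. Of 20, 9 were higher and 3 lower, against 18.1% and 24.3% over all genes. Mkl2 and Mkl1, the coactivators of SRF, were higher by 1.37 and 1.11, Lats1 by 1.08 and Tead4 by 1.13, and Tead3 stood at -1.35. Srf and Lats2 stand in 2 of the lists each. Tgfb2, a TGF-beta ligand, and Pmepa1, a gene of the TGF-beta response, were higher by 1.83 and 1.58. Rescaling the libraries by the median ratio changed the split of all called genes from 2941 higher and 3958 lower to 3570 higher and 3121 lower, while the direction of Cnn1 and its call stayed (-1.79).

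Cells returned to 2i/LIF fell into unlike libraries for these genes. In cESCs from 24 h EpiLCs without Dox, Tagln was at 217.5, Thbs1 at 50.8, Cnn1 at 10.8 and Actc1 at 3.3. In cESCs from 48 h EpiLCs with Dox, Tagln was at 67.6 and Thbs1 at 39.6, with Cnn1 at 2.7 and Actc1 listed at 0. In the other 2 cESC libraries Tagln was at 3.6 and 3.5, Thbs1 at 0 and 1.8, and Cnn1 was listed at 0, close to the 5.2, 0.9 and 2.6 of the starting cells. The high libraries do not share an hour or a Dox history, so neither orders these values.

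**Figure D4:**
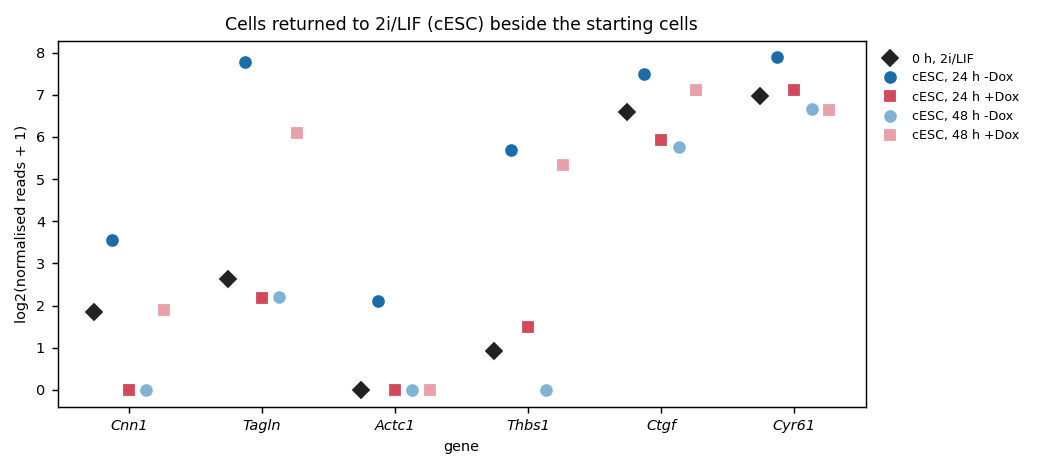
Level of 6 members as log2(normalised reads + 1) in the 2i/LIF cells at 0 h (diamonds) and the 4 cESC libraries, named by the hours in EpiLC medium and the Dox treatment before replating (circles without, squares with Dox). Tagln and Thbs1 lie far above the starting cells in the cESCs from 24 h without Dox and from 48 h with Dox and near or below them in the other 2.

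Ctgf and Cyr61 varied less between these libraries. Ctgf was at 179.2 and 136.9 in the high libraries and at 53.6 and 59.6 in the low ones, beside 95.7 at 0 h. Cyr61 was at 235.8 and 99.1 in the former and at 100 and 138.6 in the latter, beside 125.2. Relative to 0 h, 4 of 6 members were at least 2-fold higher in the cESCs from 24 h without Dox, against 5.47% of genes, and 2 of 5 in those from 48 h with Dox, against 4.92%. None was at least 2-fold higher in the cESCs from 48 h without Dox or from 24 h with Dox, where 2.9% and 2.34% of genes were.

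In the high libraries most companion genes did not pass the 2-fold rule, although a larger share was higher than over all genes. In the cESCs from 24 h without Dox, 5 of 21 SRF cytoskeletal targets were at least 2-fold higher than at 0 h and 1 was lower. Of 18 YAP/TEAD targets there, 5 were higher and 3 lower, and 5.47% of all genes were higher. In those from 48 h with Dox the counts were 5 higher and 1 lower of 20, and 3 higher and 3 lower of 17, with 4.92% of all genes higher. Of 5 immediate early targets none was higher by this fold in any cESC library, and Srf was at 311.7 and 332.4 in the high libraries beside 320.9 and 365.8 in the low ones. Some single targets, chosen after their values were seen, did stand high with the members. Igfbp3 was at 198.3 and 105.4 in the high libraries and at 30.0 and 28.1 in the low ones, and Tpm1 at 197.5 and 132.4 beside 60 and 57.0. Acta1 was at 53.3 and 23.4 beside 4.5 and 7.0. The EpiLC marker Fgf5 was at 0, 1.8, 4.5 and 0 in the same order and Pou3f1 at 5.0, 6.3, 3.6 and 6.1, so that neither was high in any cESC library. Of the 4 ESC markers 3 were lower in the 2 high libraries, with Zfp42 at 1955 and 2677 beside 3006 and 4237, Sox2 at 1181 and 1280 beside 1498 and 1526, and Pou5f1 at 5810 and 6941 beside 7762 and 8367, while Nanog (1835 and 2733 beside 1988 and 2567) was not. The summed feeder markers were at 11.7 to 21.1 in the 4 libraries. With 1 library each, these differences compare libraries, and what sets them was not tested.

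In serum/LIF Cnn1 was lower with Dox, as in the EpiLCs. It was at 31.6 without and 4.29 with Dox, in libraries of 23.8 and 23.5 M reads, a log2 difference of -2.62. Of the 5 members measured there it was the only one at least 2-fold lower, against 8.2% of genes. Tagln was at 19.1 and 19.8, Thbs1 at 9.77 and 13.3, Ctgf at 49.8 and 61.4, and Cyr61 at 68.2 and 109. Acta2 and Actc1 were at or under the floor in both. Isy1 was at 328 and 5096. The summed feeder markers were at 61.4 with Dox beside 180.5, nearly all from Thy1 (51.9 beside 134.8) and Col1a1 (8.81 beside 44.3). The other feeder markers measured were at 0 to 0.71 in both, and Thy1 is also made outside fibroblasts. Tpm2 (28.1 beside 74.6) and Fos (15.5 beside 51.1) were lower with Dox too. The part of these genes in the Cnn1 difference was not tested. These are 2 single libraries with no replicate check, and they share none with the EpiLC table.

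In EBs the contractile genes peaked at day 4, and the actins rose again at day 13. Tagln was at 19.1, 25.4, 34.2, 744, 371, 121 and 284 at days 0, 1, 2, 4, 8, 10 and 13. Cnn1 was at 31.6, 5.14, 21.3, 263, 41.2, 16.1 and 44.4. Both were highest at day 4 and lowest early, and Cnn1 was between 16.1 and 44.4 from day 8. Acta2, the smooth muscle actin, was at 0.23, 0.38, 0.89, 131, 49.4, 37.2 and 932. Actc1 was at 0.23, 0.48, 0, 76.9, 15.3, 15 and 964. The actins therefore had a first rise at day 4 and their highest value at day 13, and reads could be split between them.

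**Figure D5:**
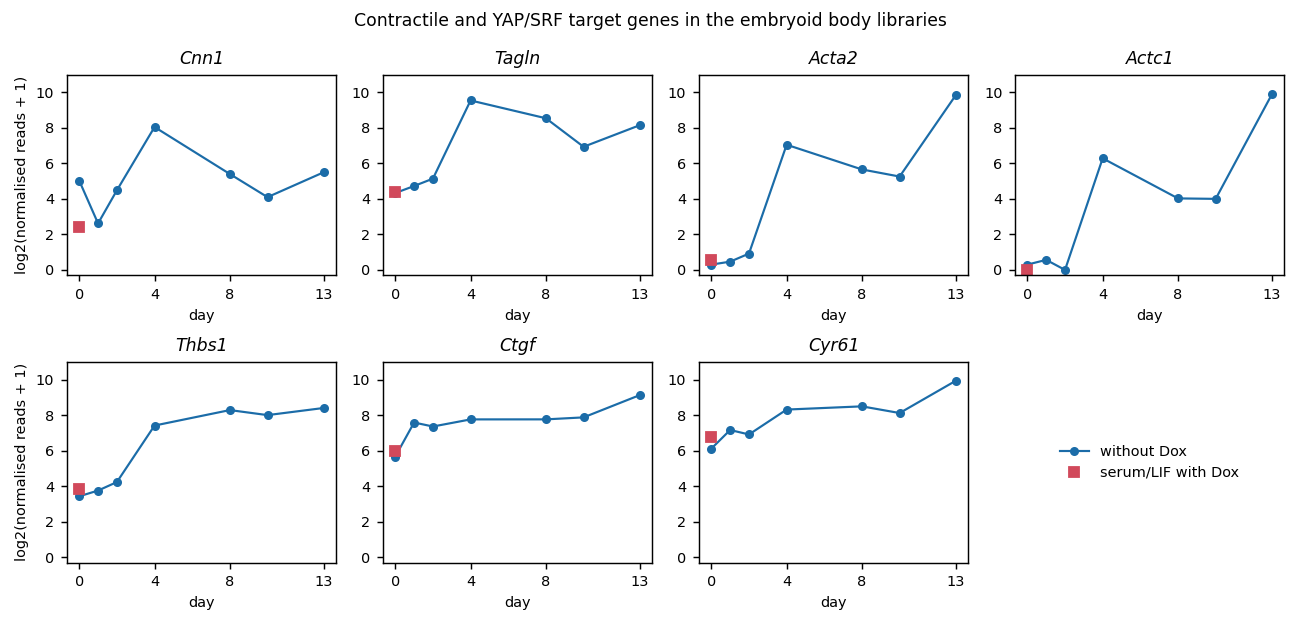
Level of the 7 members as log2(normalised reads + 1) against day of EB formation without Dox (circles, 1 library per day, day 0 in serum/LIF) and in serum/LIF with Dox (squares at day 0). Cnn1 and Tagln are highest at day 4, Acta2, Actc1, Ctgf, Cyr61 and Thbs1 at day 13, and Cnn1 at day 0 is lower with Dox (4.29) than without (31.6).

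The matricellular genes rose and stayed up. Thbs1 was at 9.77, 12.5, 17.8, 169, 311, 255 and 338 at the 7 days. Ctgf was at 49.8, 191, 163, 216, 216, 233 and 561, with a first step already at day 1. Cyr61 was at 68.2, 142, 119, 317, 359, 277 and 984. At day 4 all 7 members were at least 2-fold higher than at day 0, against 15.4% of genes, and at day 13 6 of 7 were, all but Cnn1, against 26.7%.

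In the smooth fit of the 7 days, 4 of 7 members were called higher. Of 16753 genes 26.9% were called, 17.3% higher and 9.61% lower. Thbs1 rose by 5.98 ± 0.88 (SE, log2; limma adjusted p = 0.0074), Cyr61 by 3.21 ± 0.54 (0.012), Ctgf by 2.56 ± 0.52 (0.024) and Acta2 by 8.95 ± 1.88 (0.025). Actc1 had a fitted change of 8.03 ± 2.14 (limma adjusted p = 0.0501), Tagln of 4.41 ± 1.32 (0.079) and Cnn1 of 1.07 ± 1.64 (0.80), none of them called. The call of Acta2 ended without day 8 (0.053) or day 13 (0.12), and that of Ctgf without day 2 (0.053). Actc1 and Tagln were called without day 4 (limma adjusted p = 0.0060 and 0.016), and Tagln also without day 0 (0.039).

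The day 13 library also stood apart for several fibroblast, heart muscle and endothelial genes. Col1a1 was at 45.0 at day 10 and 4921 at day 13, Col1a2 at 56.7 and 2751, Col3a1 at 7.22 and 4322, and Lum at 0.56 and 431. Thy1, from the same list, went the other way, with 161.9 at day 4, 16.1 at day 10 and 7.78 at day 13. The sum of the 7 fibroblast markers measured was 21.6 to 331 in the other libraries of the course and 12607 at day 13. The heart genes Myh6 and Myl7 went from 11.1 and 6.11 to 743 and 357, and at day 4 they had been at 32.5 and 18.8. The endothelial genes Cdh5, Kdr and Tek went from 67.8, 71.1 and 7.22 to 361.7, 243.3 and 34.4. Pecam1, from the same list, went from 8.89 to 25, below its 109.8 at day 0 and 127 at day 1. Smooth muscle markers (4 of 5 measured) summed to 91.2 to 306 over the course and to 248 at day 13. The part of these cells in the members' rise was not tested.

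Other targets rose in the EBs too. Of 21 SRF cytoskeletal targets 9 rose and none fell, with a median of 1.13 against 0.12 over all genes. The fit called 17.3% of all genes higher and 9.61% lower. Myl9 rose by 6.44, Mylk, the kinase of myosin light chains, by 5.81 and Fhl2, an SRF cofactor, by 5.53. Of 22 YAP/TEAD targets 12 rose and 4 fell, with a median of 1.86. Rbms3 rose by 7.48 and Ankrd1 by 5.31, while Gadd45a fell by 1.73 and Dock5 by 1.38 on the log2 scale. Of 20 factors 5 rose, among them Amot (6.16) and Lats2 (3.22), and Tead4 fell by 2.15. Of 6 relatives, Thbs2 rose by 4.51 and Thbs3 by 3.00. Of 6 immediate early targets none was called higher, and Junb had a fitted fall of 2.40. From day 10 to day 13, however, Fos went from 18.3 to 263.9, Egr1 from 68.9 to 512.8 and Junb from 68.3 to 313.9, beside the day 13 rise of the members.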

How the data were processed

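PolyA RNA was extracted with Trizol, and 3 ug of total RNA went into a TruSeq stranded kit, per the labels' protocols. Reads were aligned with Bowtie, per the submitters' processing notes, which also list GRCm38 and mm9 as builds and do not say what each was for. The counter, annotation and normalisation are not given in the sources used here. The deposited values are signal: in 24 of 32 polyA libraries at least 95% of low values were whole multiples of 1 step, which is what dividing gene reads by 1 factor per library gives; this was inferred from the values. In the other 8, depth is an estimate from the step that fitted best, and the fit (1 is exact) was poorest for the knockout at 72 and 96 h (0.48 and 0.35). A row with no gene name (1) was left out.

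Values were analysed as log2(value + 1), and limma 3.58.1 (intensity trend, R 4.3.3) tested the genes whose mean reached 1 in the fit, adjusted by Benjamini-Hochberg over all genes at 0.05, two-sided. The Dox and knockout fits had hour as a block (3 and 5 residual degrees of freedom), and the courses used natural splines in root-transformed time with 3 (EpiLC) and 2 (EB) degrees of freedom, so the spread over times stands in for replicates. Differences of single libraries had no test and were described by a 2-fold rule. The members are named in every comparison, and companion genes are the called genes of fixed lists with the largest changes. Scripts were tested on simulated data. The members and lists were chosen with earlier results of these data known. Alternatives were the pseudocount, the filter on low values, median-ratio rescaling, no trend, no block, another spline, leaving out each time, and, added after seeing the data, edgeR 4.0.16 on recovered reads. The 10 small RNA libraries were not used.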

Additional observations from a re-analysis of the deposited data

Results flagged for a closer look

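The difference with Dox changed sign between early and late hours for both CCN genes. For Ctgf the mean log2 difference was 0.43 at 24 and 48 h and -1.13 at 72 and 96 h, a change of -1.56, with both early pairs above 0 and both late pairs below. For Cyr61 the means were 0.58 and -1.37, a change of -1.94, with the same signs in each pair. In the knockout line the signs of Ctgf ran the same way, with 0.12 and -1.05 and a change of -1.17, against the same control libraries. Its early differences were small, at 155.7 and 115.4 beside 138.2 and 109.7 at 24 and 48 h. The controls there held 152 and 124 reads, so the early sign is uncertain. The differences between early and late hours were not tested.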

How the results depend on the processing

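The number of genes called with Dox (456) was 0 without the intensity trend (3306 at an unadjusted p under 0.05) and 0 without the block on hour (1276), ranged from 0 to 1122 when each hour was left out (0 without 48 h or 72 h, with 3210 and 1924 at an unadjusted p under 0.05, 66 without 96 h and 1122 without 24 h), and was 109 by edgeR on the recovered reads of 24 and 48 h. On recovered reads edgeR called 6651 genes along the EpiLC course to 72 h (8125 by limma to 96 h) and 4540 along the EBs. In the knockout 6899 genes became 3487 without the block. In the EBs 4505 ranged from 1919 (without day 10) to 5847 (without day 0), with 2640 without day 2 and 2121 without day 13. With Dox, edgeR on 24 and 48 h put Thbs1, Ctgf and Cyr61 at 0.048, 0.41 and 0.55, above 0. Over the hours left out, Ctgf ran from -0.61 (without 48 h) to 0.23 (without 96 h) and Cyr61 from -0.77 to 0.0027 (the same hours). In the knockout Thbs1 ran from -0.67 (without 6 h) to 0.034 (without 96 h) and Ctgf from -0.37 to 0.045 (the same hours). Cnn1 along the EBs stood at -0.015 with a spline of 3 degrees of freedom and ran from -0.045 (without day 1) to 1.75 (without day 10). In the EBs Actc1 was called with a pseudocount of 0.5, after median-ratio rescaling and by edgeR (adjusted p of 0.046, 0.049 and 0.040). Rescaling moved the median of all genes by -0.13 in the EBs. The causes were not tested, apart from the fewer libraries of each fit. The labels give no replicate numbers, so libraries were paired by hour in the block. Over the members' results in all settings, 315 kept their call or, where untested, kept their sign and shifted by less than their spread. Another 24 untested results kept their sign with a larger shift, and 9 changed sign. With the sign kept, 7 gained and 4 lost the call. The numbers of genes called are not among these counts. Depth limits Actc1, which was at or below 3 reads in 19 of 24 EpiLC libraries, and Cnn1, in 9 of 24.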
